A study of Mus musculus with 12 samples.

Results

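The genes described here are 9 markers of the cells that wrap blood vessels, taken from a table of read counts for 25171 loci in mouse hearts by their symbols: Acta2, Myh11, Tagln, Cnn1, Smtn, Pdgfrb, Rgs5, Cspg4 and Mcam. Each symbol matched 1 locus. The hearts carried a conditional transgene of the human NOTCH2NLC gene with 98 GGC repeats, which is placed in the Rosa26 site behind a stop cassette that Cre recombinase removes. RNA-seq was done on 12 hearts in 4 groups of 3, each labelled as a separate biological replicate.

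In EIIa-tg mice (spelled E2a in the sample labels), a Cre driven by the EIIa promoter turns the transgene on throughout the body from the embryo onward. EIIa-ctl hearts came from mice with the conditional transgene but without this Cre, and both groups were taken at postnatal day 30. The Myh6 line was bred from homozygous Myh6-creERT2 mice, whose Cre is made in cardiomyocytes and activated by tamoxifen, and from postnatal day 60 these mice were given 3 injections of 75 mg/kg on alternate days. Myh6-tg mice received tamoxifen and Myh6-ctl mice received corn oil, and these hearts were taken at postnatal day 90. Both Myh6 groups therefore share the transgene and the Cre allele in their labels, and an effect of tamoxifen cannot be told apart from an effect of the expressed repeat. Mural cells are not the cells in which the Myh6 promoter is known to drive expression.

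The libraries held 38343106 to 50969834 counts, of which 15.5 to 38.3% came from mitochondrially encoded genes, and cardiomyocyte markers were high in all 12 (Tnnt2 had 2949 to 9673 normalised CPM). Although the extraction note speaks of brain, the neuronal marker Snap25 did not exceed 0.0993 normalised CPM. Of the other brain markers listed, Syt1, Gfap, Rbfox3, Gad1 and Mog did not exceed 0.662, but Slc17a7 stood at 7.81 to 40.7. In each group, replicate 1 alone had more than 2 counts from Y-linked genes. The genotype labels of EIIa-tg replicates 2 and 3 read e3a and e4a in place of e2a, and these hearts were grouped by title. Esr1, whose ligand-binding part is related to the receptor part fused to creERT2, stood at 1030 to 2330 normalised CPM in Myh6-ctl hearts but at 1.00 to 2.52 in the hearts labelled Myh6-tg, against 0.408 to 1.23 in the EIIa groups. The labels give both Myh6 groups the same genotype, so the hearts labelled Myh6-tg do not show the Esr1 level of their own controls, and this difference stands beside every Myh6 comparison.

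Vascular smooth muscle cells line arteries and set their width by contracting, through actin, smooth muscle myosin and proteins that tune both. Pericytes sit on capillaries, are recruited there by platelet-derived growth factor from the endothelium, and in the heart control capillary flow and stability. Contractile genes are transcribed in smooth muscle largely through serum response factor, which binds the CArG box, together with its partner myocardin, and several of them are also known from activated fibroblasts or immature heart muscle. In whole hearts, fewer cells of a type and less RNA per cell cannot be told apart.

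The contractile markers are Acta2 (smooth muscle actin), Myh11 (the heavy chain of smooth muscle myosin), Tagln (transgelin, an actin-binding protein), Cnn1 (calponin 1, which binds actin and slows the myosin motor) and Smtn (smoothelin, an actin-associated protein of contractile smooth muscle). The surface and signalling markers are Pdgfrb (the receptor through which platelet-derived growth factor recruits pericytes), Rgs5 (a regulator of G protein signalling), Cspg4 (the NG2 proteoglycan) and Mcam (CD146, an adhesion molecule shared by pericytes and endothelium). In the GENCODE M21 annotation of GRCm38, Cnn1 lies at chr9:22099216-22109630 on the plus strand and overlaps no other annotated gene. Acta2 lies at chr19:34241090-34255590, Myh11 at chr16:14194535-14291372, Tagln at chr9:45929619-45936058 and Smtn at chr11:3517523-3540612, all on the minus strand. Rgs5 lies at chr1:169655501-169695813, Cspg4 at chr9:56865033-56899870 and Mcam at chr9:44134469-44142727, all on the plus strand. Tagln overlaps Pcsk7 and Gm48529, Smtn overlaps Gm11946 and Gm11947, and Mcam overlaps Gm10687, each on the opposite strand. The strand setting of the counting is not given in the sources used here, so reads in those overlaps cannot be assigned to a strand.

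RefSeq promoter windows of GRCm38.p6, reaching from 250 bases before to 50 bases after the start, were matched for 6 of the 9 markers: Acta2, Cnn1, Smtn, Rgs5, Cspg4 and Mcam. Myh11 and Tagln had no such window, and Pdgfrb was left out of the search. The 6 windows were searched for the CArG box, whose letters read the same way on both strands. None of the 6 held a complete box, which 1.63% of all 32817 promoters held. With 1 base other than A or T allowed in the core, Acta2 alone held a match, at 2 positions, and 9.99% of all promoters held such a match. Both are shown because they are the only such sites found in the 6 windows searched. The capitals mark the box, the sequences run 5′ to 3′ on the minus strand, and they begin their box 84 and 34 bases before the start, at chr19:34255438-34255467 and chr19:34255388-34255417. This RefSeq start lies inside the longer GENCODE interval of Acta2 given above, so both sites fall within that interval.
Acta2 distal site: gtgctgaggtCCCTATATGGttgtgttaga
Acta2 proximal site: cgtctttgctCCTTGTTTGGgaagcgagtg

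Levels of different genes were compared on the deposited FPKM values, which are per length. In EIIa-ctl hearts Rgs5 was the most abundant marker with 186 ± 15.3 FPKM (SD, n = 3), followed by Acta2 with 116 ± 46.8, and these overlapped in none of the hearts although the spread of Acta2 was wide. Smtn (41.5 ± 3.45), Tagln (23.8 ± 3.29), Mcam (19.9 ± 1.19) and Pdgfrb (16.8 ± 1.11) formed the middle of the order. Tagln and Mcam did not overlap, but the lowest heart of Tagln at 21.3 FPKM and the highest of Mcam at 20.9 FPKM were closer than the SD of Tagln. Myh11 (6.08 ± 0.354), Cspg4 (3.01 ± 0.267) and Cnn1 (1.01 ± 0.138) closed the order. Smooth muscle myosin and calponin were thus at the low end of the contractile markers in untreated young hearts, and actin was at the high end.

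**Figure D1:**
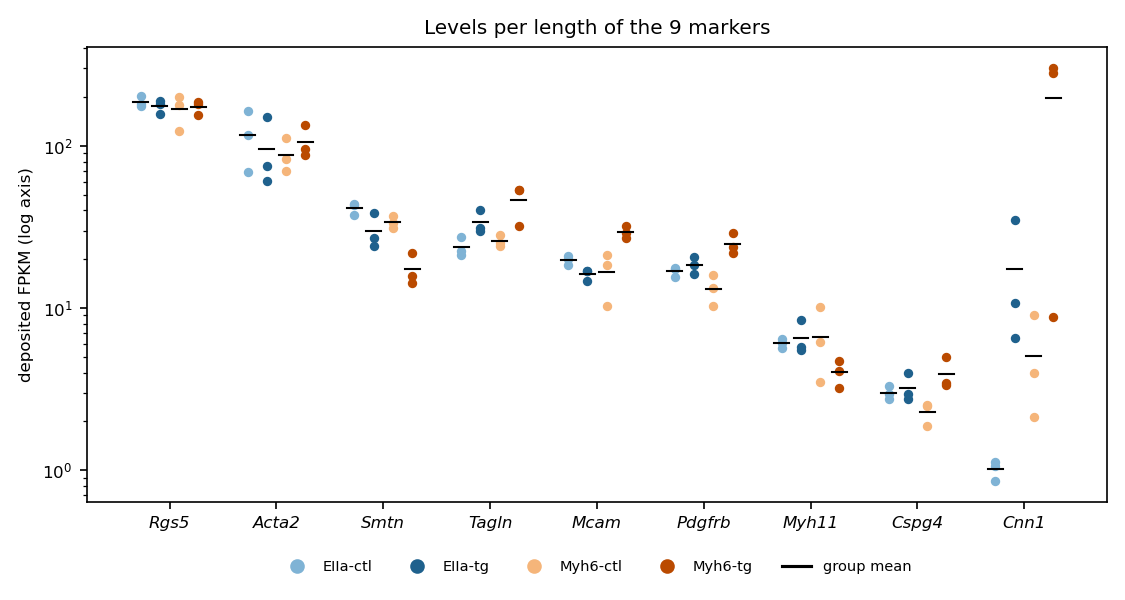
Deposited FPKM of each marker on a log axis, with 1 point per heart, bars at the mean of 3 hearts and markers ordered by their mean in EIIa-ctl. Cnn1 is last in EIIa-ctl at a mean of 1.01 FPKM and first in Myh6-tg at a mean of 198, where 1 heart stays at 8.81.

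The order of the other markers was similar in all 4 groups, with Rgs5 and Acta2 at the top and Cspg4 near the bottom. Cnn1 moved most, from the ninth place in EIIa-ctl to the eighth in the older controls (5.05 ± 3.57 FPKM in Myh6-ctl), the sixth in EIIa-tg (17.4 ± 15.2) and the first in Myh6-tg (198 ± 164). In Myh6-tg, Cnn1 and Rgs5 (174 ± 16.3) did not differ beyond the spread, since Cnn1 ranged from 8.81 to 303 FPKM. Smtn moved the other way, from the third place in both control groups to the seventh in Myh6-tg (17.4 ± 4.05). Over all 12 hearts the highest value of Cnn1 was 255 times its lowest in normalised CPM, whereas this ratio was 1.67 for Rgs5, 1.76 for Pdgfrb, 1.86 for Tagln and 3.37 for Myh11.

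The following values are normalised CPM, that is CPM (counts scaled to a common library total) after adjustment by TMM factors, which compare a gene between hearts. Fold changes and adjusted p-values come from edgeR's quasi-likelihood test with Benjamini-Hochberg adjustment over all genes tested, and a change was called at an adjusted p under 0.05.

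In EIIa-tg hearts at postnatal day 30, Cnn1 rose, Smtn and Mcam fell, and the other 6 markers passed in neither direction. These 3 calls among 9 markers stand beside 17.0% of 14908 genes called in the same comparison. The study itself called differentially expressed genes with DESeq2, at an adjusted p below 0.01 with at least a doubling or halving, and reported such genes in EIIa-tg. At these stricter thresholds edgeR called no marker and no other gene (0%). By unadjusted p under 0.05, edgeR gave 3 markers, beside 5204 of 14908 genes. At the stricter thresholds DESeq2 gave 1 marker, beside 4.96% of all genes it tested. The groups did not overlap for 4 of the 9 markers, against 41.0% of all genes tested. The median log2 fold change was -0.082 over the 5 contractile markers and -0.19 over the 4 surface and signalling markers, against 0.016 over all genes tested. Cardiomyocyte markers moved in the same comparison. Their sum was 47002 to 57249 in EIIa-ctl and 22159 to 40953 in EIIa-tg, 7 of the 8 were lower in 3 of 3 hearts and 1 passed as a fall, and their part in the marker results was not tested.

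Cnn1 was at 2.35, 2.71 and 2.80 in the 3 EIIa-ctl hearts and at 25.1, 15.8 and 70.0 in the 3 EIIa-tg hearts. Every EIIa-tg heart was above every control, and the lowest of them was several times the highest control. The control values rested on 103, 104 and 103 counts. The log2 fold change was 3.81 ± 0.53 (SE), with a 95% interval from 2.61 to 5.02 and an adjusted p of 0.0147 (edgeR). It ranked 86 of 14908 when genes were ordered from the largest rise down. Without EIIa-ctl replicate 1, EIIa-ctl replicate 3 or EIIa-tg replicate 1 the adjusted p was 0.0769, 0.0785 and 0.0538, and the log2 fold change stayed between 2.97 and 4.17 whichever heart was left out.

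Smtn was at 120, 115 and 101 in EIIa-ctl and at 66.0, 96.5 and 68.2 in EIIa-tg. The groups did not overlap, and EIIa-tg replicate 2 came within reach of the lowest control. This was a log2 fold change of -0.54 ± 0.16 (SE), with an adjusted p of 0.0497 (edgeR). The call for Smtn was lost whenever any heart other than EIIa-tg replicate 2 was left out, with adjusted p from 0.102 to 0.160.

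Mcam was at 64.1, 66.3 and 67.8 in EIIa-ctl and at 44.0, 51.03 and 46.0 in EIIa-tg. All 3 transgenic hearts lay below the narrow range of the controls. The log2 fold change was -0.49 ± 0.095 (SE), with an adjusted p of 0.0195 (edgeR). Without EIIa-ctl replicate 1, EIIa-ctl replicate 3, EIIa-tg replicate 1 or EIIa-tg replicate 3 the adjusted p was 0.0775, 0.0893, 0.0689 and 0.0683. Mcam is shared with endothelium, and among the 8 endothelial markers 2 fell (Cdh5 by 0.59 and Kdr by 0.69 on the log2 scale) while Pecam1 had a log2 fold change of -0.17 with an adjusted p of 0.228. The summed endothelial markers ranged from 983 to 1152 in EIIa-ctl and from 819 to 887 in EIIa-tg, and their part in the Mcam result was not tested.

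**Figure D2:**
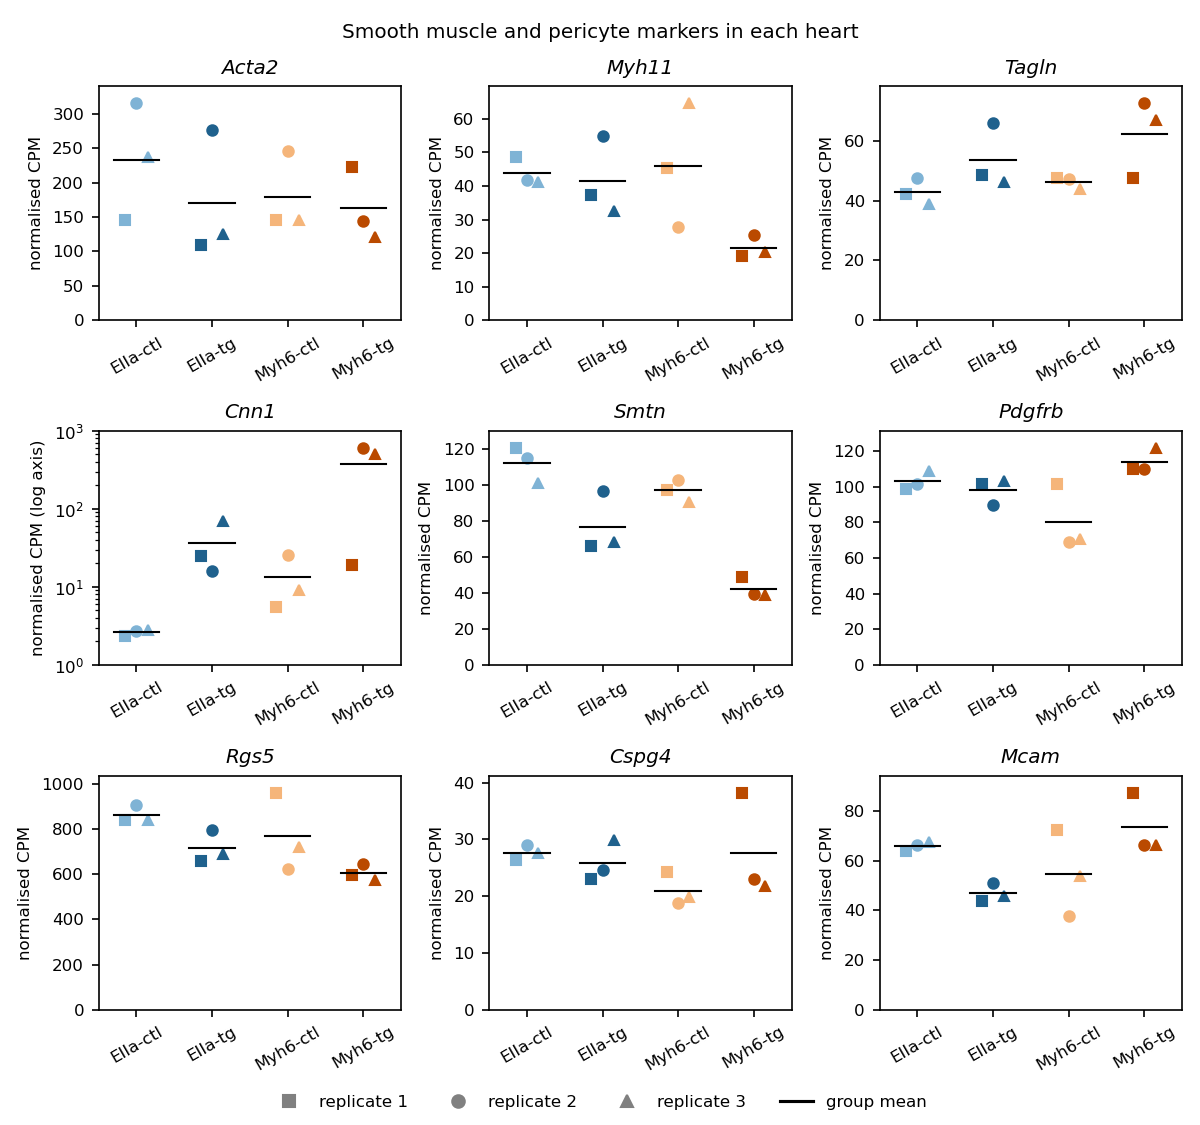
Normalised CPM of each marker in each of the 12 hearts, with bars at the group means, symbols for the replicate numbers and a log axis for Cnn1 only. Cnn1 ranges from 2.35 to 598, Smtn is lowest in Myh6-tg (39.0 to 48.6), and Mcam in EIIa-tg (44.0 to 51.03) lies below EIIa-ctl (64.1 to 67.8).

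The 6 markers that did not pass included the defining genes of both cell types. Acta2 was at 145, 315 and 237 in EIIa-ctl and at 110, 277 and 125 in EIIa-tg, with wide overlap. Its log2 fold change was -0.45 ± 0.38 (SE), with an adjusted p of 0.448 (edgeR), and without EIIa-tg replicate 2 it was -0.9996 with an adjusted p of 0.0351. Rgs5 was at 842, 906 and 842 in EIIa-ctl and at 658, 796 and 691 in EIIa-tg, lower in 3 of 3 transgenic hearts. Its log2 fold change of -0.28 ± 0.12 (SE) had an adjusted p of 0.148, and without EIIa-tg replicate 2 the adjusted p was 0.0390. Tagln had a log2 fold change of 0.32 ± 0.16, Myh11 of -0.082 ± 0.19, Pdgfrb of -0.074 ± 0.091 and Cspg4 of -0.10 ± 0.12, and their adjusted p ran from 0.183 to 0.796. Tagln passed as a rise in 2 of the 18 alternative ways in which this comparison was run. The 95% interval for Pdgfrb reached from -0.28 to 0.13. On the FPKM scale (limma on log2(FPKM + 1)), on which the median of all genes was 0.16, Myh11, Pdgfrb and Cspg4 had log2 fold changes of 0.078, 0.12 and 0.067, of the opposite sign, and Mcam and Smtn had adjusted p of 0.0734 and 0.0699.

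In the hearts labelled Myh6-tg at postnatal day 90, Cnn1 rose, and Smtn and Myh11 fell. These 3 calls among 9 markers stand beside 18.3% of 15298 genes called in this comparison. By edgeR, Smtn alone met the stricter thresholds, which 3.97% of all genes tested met, and by DESeq2 all 3 called markers met them, beside 12.1% of the genes it tested. The groups did not overlap for 4 markers, Tagln and Pdgfrb being higher and Myh11 and Smtn lower in 3 of 3 hearts, against 40.2% of all genes tested. The median log2 fold change was -0.13 over the contractile markers and 0.41 over the surface and signalling markers, against 0.032 over all genes tested. The libraries of this comparison also differed in their mitochondrially encoded share, at 31.8 to 38.3% of counts in Myh6-ctl and 15.5 to 18.6% in Myh6-tg, and its part in the marker results was not tested beyond removal of these genes before scaling, which changed no marker call.

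Smtn was at 97.1, 103 and 90.8 in Myh6-ctl and at 48.6, 39.3 and 39.0 in Myh6-tg. Every transgenic heart was at close to the same low level, far below the controls. The log2 fold change was -1.20 ± 0.17 (SE), with a 95% interval from -1.59 to -0.81 and an adjusted p of 0.00561 (edgeR). It lay between -1.31 and -1.14 whichever heart was left out.

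Myh11 was at 45.4, 27.6 and 64.7 in Myh6-ctl and at 19.2, 25.5 and 20.2 in Myh6-tg. The groups did not overlap, but Myh6-ctl replicate 2 lay just above the highest transgenic heart. On the log2 scale the change was -1.08 ± 0.31 (SE), with an adjusted p of 0.0452 (edgeR). With the replicate number as a block, which treats Myh6 hearts with the same number as pairs, it was -1.02 with an adjusted p of 0.0629. The adjusted p was 0.119 without Myh6-ctl replicate 1, 0.120 without Myh6-ctl replicate 3, and 0.0724, 0.0877 and 0.136 without Myh6-tg replicate 1, 2 and 3.

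Cnn1 was at 5.47, 25.2 and 8.99 in Myh6-ctl and at 19.3, 598 and 505 in Myh6-tg. Replicates 2 and 3 of Myh6-tg were far above all other hearts of the study, whereas Myh6-tg replicate 1 lay below Myh6-ctl replicate 2. The log2 fold change was 4.82 ± 1.19 (SE), with a wide 95% interval from 2.07 to 7.58 and an adjusted p of 0.0299 (edgeR). It ranked 52 of 15298 by size of the rise. The adjusted p was 0.112, 0.0626 and 0.106 without Myh6-ctl replicate 1, 2 and 3, and 0.0732 and 0.0702 without Myh6-tg replicate 2 and 3. It lay between 4.31 and 5.70 in all of these fits.

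Cnn1 in Myh6-tg was lowest in the heart that also had the lowest level of activated fibroblast markers. The sum of these 8 markers (among them Postn and Cthrc1, secreted proteins of activated fibroblasts) was 974, 2818 and 3022 in the 3 Myh6-tg hearts and 144, 186 and 242 in Myh6-ctl, and 5 of the 8 rose. The same heart kept the highest sum of cardiomyocyte markers in its group, at 31977 against 13177 and 10102, and 5 of the 8 cardiomyocyte markers fell. It also had the highest sums of 6 immature cardiomyocyte markers (9619 against 5084 and 4548) and of 6 macrophage markers (871 against 457 and 446). Its sum of 8 fibroblast markers was the lowest (2812 against 6842 and 7525). Of the immature cardiomyocyte markers, 3 rose and 1 fell in EIIa-tg, and 2 rose in Myh6-tg. This heart, replicate 1, was also the only one of its group with counts from Y-linked genes (7307). The part of any of these in the Cnn1 result was not tested. In EIIa-tg the activated fibroblast sum was 138 to 285 against 122 to 198 in EIIa-ctl, with 1 of the 8 markers higher and 1 lower, while Cnn1 also rose there.

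**Figure D3:**
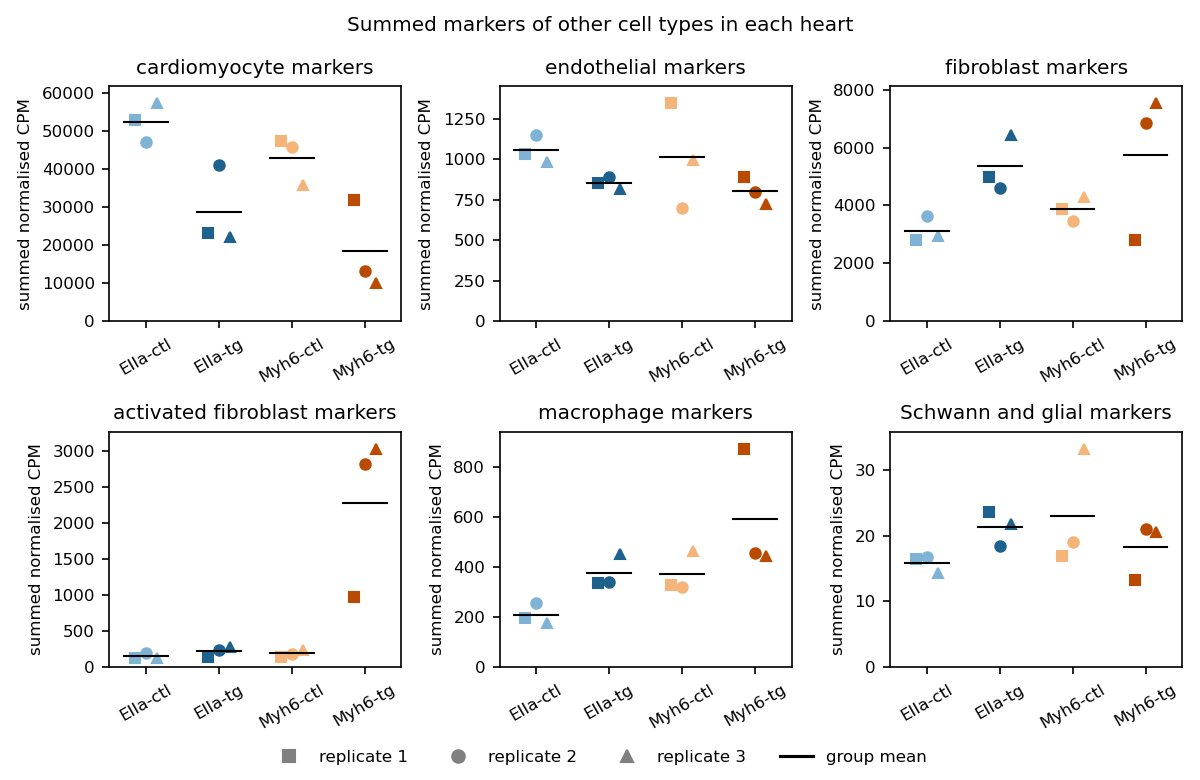
Summed normalised CPM of marker lists of 6 other cell types in each of the 12 hearts, with bars at the group means and symbols for the replicate numbers. Activated fibroblast markers lie at 974 to 3022 in Myh6-tg and at 122 to 285 in all other hearts, with replicate 1 lowest in Myh6-tg.

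**Figure D4:**
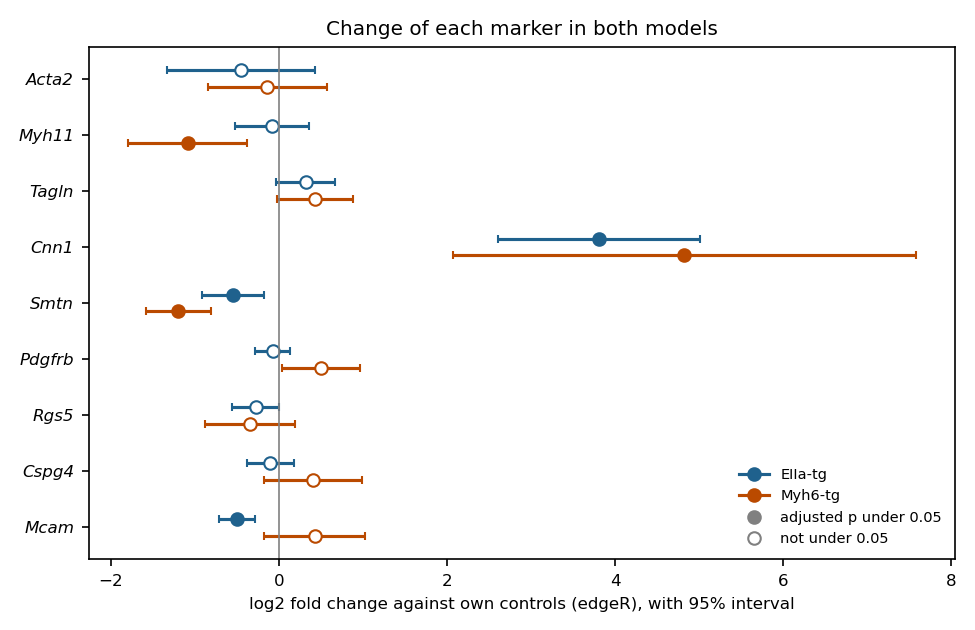
Fold changes of the 9 markers against their own controls in EIIa-tg (blue) and Myh6-tg (orange), on a log2 scale with 95% intervals from edgeR, filled where the adjusted p was under 0.05. Cnn1 stands at 3.81 and 4.82, Smtn at -0.54 and -1.20, and Mcam at -0.49 and 0.43.

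None of the 4 surface and signalling markers passed in Myh6-tg by edgeR or by DESeq2. By both, 1 of them, Pdgfrb, had an unadjusted p under 0.05, as did 5210 of 15298 genes by edgeR. Pdgfrb, which lies at chr18:61045150-61085061 on the plus strand, was at 101, 69.0 and 70.6 in Myh6-ctl and at 110, 110 and 122 in Myh6-tg, higher in 3 of 3 hearts. Its log2 fold change of 0.50 ± 0.20 (SE) had an adjusted p of 0.121 (edgeR). Rgs5 was at 962, 623 and 721 in Myh6-ctl and at 596, 646 and 576 in Myh6-tg, with overlap, and its log2 fold change of -0.34 ± 0.23 had an adjusted p of 0.342. Mcam was at 72.6, 37.7 and 53.9 in Myh6-ctl and at 87.5, 66.6 and 66.6 in Myh6-tg, overlapping between groups but higher in 3 of 3 pairs of hearts with the same number (0.46 with the replicate block, adjusted p of 0.119). No label pairs these hearts, and replicate 1 is the heart with Y-linked counts in both Myh6 groups. The log2 fold change of Mcam was 0.43 ± 0.26 and that of Cspg4 was 0.40 ± 0.25, with adjusted p of 0.287 and 0.301. Pdgfrb, Mcam and Cspg4 were each highest within Myh6-ctl in replicate 1. That heart also had 5245 counts from Y-linked genes, against 2 and 0 in the others of its group. On the FPKM scale (limma on log2(FPKM + 1)), on which the median of all genes was 0.34, Pdgfrb and Mcam passed at 0.88 and 0.83 (adjusted p of 0.0157 and 0.0393), and Rgs5 was at 0.082, of the opposite sign.

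The remaining contractile markers did not pass in Myh6-tg either. Tagln was at 47.4, 47.4 and 44.0 in Myh6-ctl and at 47.7, 72.5 and 66.9 in Myh6-tg. Replicate 1 of Myh6-tg lay just above the controls and the other two well above them, and the log2 fold change of 0.43 ± 0.20 (SE) had an adjusted p of 0.162 (edgeR). Acta2 was at 145, 245 and 145 in Myh6-ctl and at 223, 144 and 121 in Myh6-tg, with a log2 fold change of -0.13 ± 0.31 and an adjusted p of 0.798, and on the FPKM scale it was at 0.26, of the opposite sign. Actin genes are close copies of each other, and Actc1, the cardiac actin, stood at 3704 to 14617 normalised CPM over the 12 hearts, Acta1 at 68.7 to 847 and Actg2 at 0.911 to 2.16. None of the 100-base windows of the Acta2 transcript was identical to a stretch of another gene's transcript, and the same held for each of the other markers.

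The difference between the models was tested as an interaction over all 12 hearts, in which 3.92% of 15929 genes were called. No marker passed by edgeR, and 4 of 9 had an unadjusted p under 0.05, beside 3092 of 15929 genes. DESeq2 called 1, Mcam, beside 8.53% of the genes it tested. The Myh6 change minus the EIIa change of Mcam was 0.92 ± 0.29 (SE, log2), with an adjusted p of 0.1003 by edgeR and 0.0435 by DESeq2. Mcam fell in EIIa-tg, whereas its values in Myh6-tg lay on average above its controls. For Smtn the difference was -0.65 ± 0.23 with an adjusted p of 0.137, for Pdgfrb 0.57 ± 0.21 with 0.164, and for Myh11 -1.004 ± 0.39 with 0.177. Without Myh6-ctl replicate 1, Mcam (1.17, adjusted p of 0.0289) and Pdgfrb (0.77, adjusted p of 0.0389) passed. For Cnn1 the difference was 1.00 with a 95% interval from -1.84 to 3.84, so the size of its rise in either model could not be ordered.

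The control groups differ in line, Cre allele, oil injection and age, which cannot be told apart. No marker passed between Myh6-ctl and EIIa-ctl by edgeR, in a comparison that called 0.0334% of 14990 genes. By unadjusted p under 0.05 there were 2 markers, beside 1700 of 14990 genes. DESeq2 called 1, Cnn1, beside 2.63% of the genes it tested. Cnn1 was higher in 3 of 3 Myh6-ctl hearts, by 2.33 ± 0.51 (SE, log2), with an adjusted p of 0.140 by edgeR and 4.30e-05 by DESeq2. Cspg4 was lower in 3 of 3 Myh6-ctl hearts, at 24.2, 18.8 and 19.8 against 26.4, 29.1 and 27.5, with a log2 difference of -0.40 ± 0.15 and an adjusted p of 0.368. These were the 2 markers without overlap, against 17.4% of all genes tested.

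Ratios of counts within a heart need no scaling between libraries. The ratio of Rgs5 to Pdgfrb was 9.49, 9.02 and 10.2 in Myh6-ctl and 5.41, 5.87 and 4.74 in Myh6-tg. The groups were well separated, with a log2 difference of -0.85 in a two-sided exact permutation test with p = 0.1, the smallest that 3 against 3 hearts allow, and 0.267 after Benjamini-Hochberg adjustment over the 8 ratio comparisons. In EIIa the same ratio was 8.54, 8.90 and 7.76 in controls and 6.49, 8.87 and 6.69 in EIIa-tg, with overlap and a log2 difference of -0.20 (exact permutation p = 0.3). No ratio passed after adjustment, which 3 hearts a group did not allow.

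Pdgfrb and Pdgfra are receptors for the same growth factor family, the former on mural cells and the latter mainly on fibroblasts. Their ratio was 2.30, 2.29 and 2.46 in EIIa-ctl and 1.54, 1.88 and 1.48 in EIIa-tg, lower in 3 of 3 hearts (log2 difference -0.53, exact permutation p = 0.1). It was 1.39, 1.67 and 1.06 in Myh6-ctl and 0.835, 0.789 and 0.791 in Myh6-tg, again lower in 3 of 3 (log2 difference -0.75, exact permutation p = 0.1), and both had an adjusted p of 0.267. Pdgfra itself rose in both models, by 0.47 and 1.23 on the log2 scale (adjusted p of 0.0497 and 0.0145, edgeR). The ratio of Pdgfrb to the endothelial Pecam1 overlapped between groups in EIIa (0.389 to 0.471 against 0.439 to 0.467) and in Myh6 (0.269 to 0.449 against 0.434 to 0.572). Within the pairs of Myh6 hearts with the same number it was higher in 3 of 3, at 0.353 and 0.434, 0.449 and 0.470, and 0.269 and 0.572. This was not tested as pairs, and no label pairs these hearts. The ratio of Acta2 to Myh11 overlapped in both models too, with log2 differences of -0.39 and 0.87 (exact permutation p = 0.4 and 0.3).

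**Figure D5:**
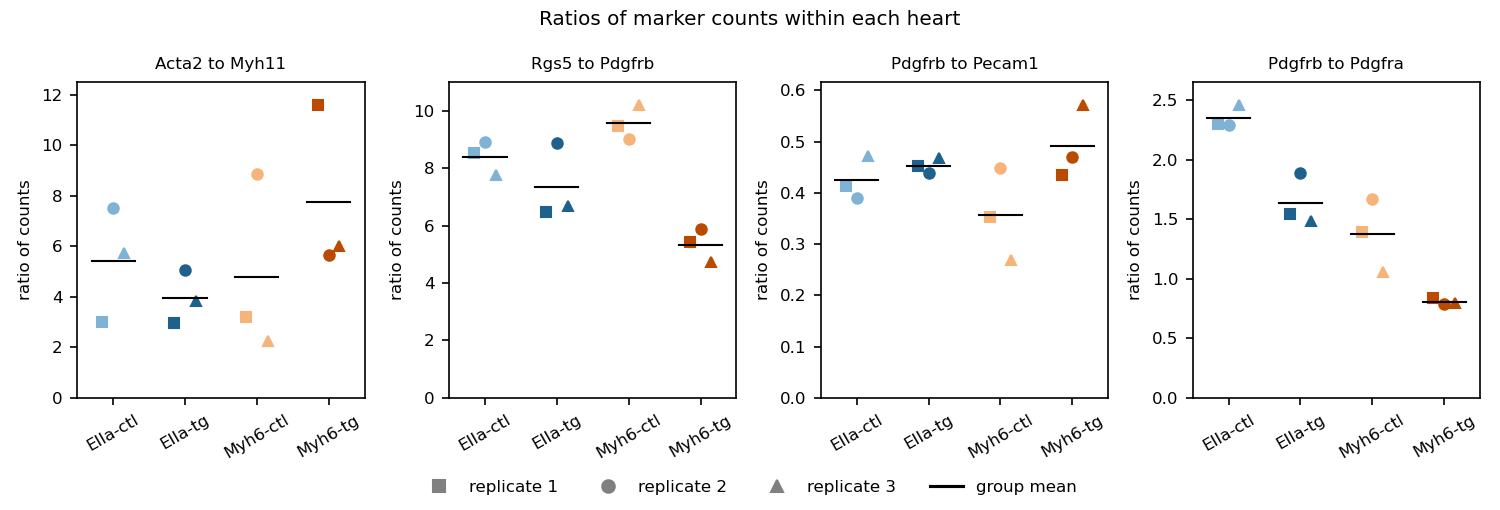
Ratios of counts of marker pairs within each heart, on linear axes from 0, with bars at the group means and symbols for the replicate numbers. Rgs5 to Pdgfrb lies at 4.74 to 5.87 in Myh6-tg below 9.02 to 10.2 in Myh6-ctl, and Pdgfrb to Pdgfra is lower in both transgenic groups than in their controls.

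Other genes of the mural programme were taken from lists chosen by function. The counts called in each of these lists stand beside 17.0% of all genes called in EIIa-tg and 18.3% in Myh6-tg. Their medians stand beside 0.016 and 0.032 (log2) over all genes tested. Of 15 further genes of smooth muscle contraction, 1 fell and none rose in EIIa-tg, and 2 rose and 1 fell in Myh6-tg, with medians of -0.057 and 0.24 (log2). Synpo2 (synaptopodin 2, an actin-bundling protein also known from heart muscle) fell by 0.51 on the log2 scale in EIIa-tg (adjusted p of 0.0236, edgeR) and rose by 1.09 in Myh6-tg (adjusted p of 0.0147). This difference between the models passed, at 1.60 ± 0.23 (SE) and an adjusted p of 0.00529. Myl6, a light chain of nonmuscle and smooth muscle myosin, rose by 1.07 in Myh6-tg (adjusted p of 0.0106), and Mylk, the kinase that starts smooth muscle contraction, fell by 0.75 (adjusted p of 0.0242).

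Of 10 regulators of the smooth muscle programme, 2 fell in EIIa-tg and 1 rose in Myh6-tg, with medians of 0.073 and 0.18 (log2). Myocd, the myocardin gene, which heart muscle also uses, was at 19.7 ± 3.63 in EIIa-ctl and 11.4 ± 3.00 normalised CPM in EIIa-tg (SD, n = 3), a fall by 0.79 on the log2 scale (adjusted p of 0.0420, edgeR). Tead1, a transcription factor of the Hippo pathway, fell by 0.62 (adjusted p of 0.0185). In Myh6-tg, Tbx18, a T-box factor of mural and epicardial cells, rose by 1.06 (adjusted p of 0.0196), and Myocd was at 23.5 ± 6.93 against 20.4 ± 6.05.

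Of 16 further pericyte genes, 1 rose and 2 fell in EIIa-tg, and 1 rose and 3 fell in Myh6-tg, with medians of -0.052 and -0.51 (log2). Abcc9, the regulatory subunit of a potassium channel gated by ATP that pericytes, smooth muscle and heart muscle share, was at 319 ± 28.5 in EIIa-ctl and 187 ± 44.6 normalised CPM in EIIa-tg, and at 291 ± 39.6 in Myh6-ctl and 70.7 ± 7.89 in Myh6-tg (SD, n = 3). It fell by 0.77 (adjusted p of 0.0262, edgeR) and by 2.04 (adjusted p of 0.00207) on the log2 scale, and the difference between the models passed (-1.27 ± 0.26, adjusted p of 0.0189). Vtn, which encodes vitronectin, fell in both models, by 0.59 and 1.28 on the log2 scale (adjusted p of 0.0271 and 0.0233). Itga7, a laminin-binding integrin of muscle and mural cells, rose in both, by 0.65 and 1.06 (adjusted p of 0.0233 and 0.0263).

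Of 17 ligands and receptors that act between endothelium and mural cells, 1 rose and 2 fell in EIIa-tg, and 2 rose and 4 fell in Myh6-tg, with medians of -0.24 and -0.40 (log2). In EIIa-tg, Tgfbr2, a receptor for TGF-beta, rose by 0.50, the Notch ligand Dll4 fell by 0.67, and the endothelial receptor Tie1 fell by 0.46 (adjusted p of 0.0233, 0.0310 and 0.0387, edgeR). In Myh6-tg, Edn1, the gene of the vessel-constricting peptide endothelin 1, was at 4.96 ± 1.41 in controls and 19.5 ± 0.484 normalised CPM in transgenic hearts, a rise of 1.98 on the log2 scale (adjusted p of 0.00380, edgeR). Pdgfd, a ligand of the Pdgfrb receptor, fell by 0.94 (adjusted p of 0.0120), and S1pr3, a sphingosine 1-phosphate receptor, fell by 1.66 (adjusted p of 0.0139).

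The genes whose pattern over the 12 hearts was most like that of each marker were found by the root-mean-square difference of centred log2 CPM among 13100 genes. For Cnn1 these were Tchh, Tnfrsf23 and Ptgs2, at 0.707, 0.862 and 0.874. Ptgs2, which encodes cyclooxygenase 2, had 18.7 ± 9.42 normalised CPM in EIIa-tg against 1.36 ± 1.01 in its controls, and 88.5 ± 77.2 in Myh6-tg against 7.19 ± 4.73 in its controls (SD, n = 3). Its groups stood in the same order as those of Cnn1, which follows from its choice by pattern over these hearts. For Smtn the nearest gene was Trp53inp2 (0.111), for Myh11 Irf1 (0.189), for Rgs5 Numb (0.0662), for Tagln Wdr12 (0.115), for Pdgfrb F11r (0.119), for Cspg4 Nrde2 (0.119), for Mcam Eif4g3 (0.113) and for Acta2 Snrnp25 (0.236). Among the markers themselves, Cspg4 and Pdgfrb were the closest pair (0.238), followed by Mcam and Pdgfrb (0.262), and the marker nearest to Cnn1 was Tagln, at 2.37. A small distance is easier to reach for genes that vary little, as Rgs5 does.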

How the data were processed

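Total RNA of mouse hearts was sequenced by the authors as paired reads, and the deposited table holds raw counts and FPKM values per locus for each heart. The submitters' processing notes name HISAT2 2.0.4, StringTie 2.2.1 and DESeq2, with the builds GRCm39 and mm10, whereas the study's methods name GRCm38, so the build of the counts is not settled and positions were taken from GENCODE M21. Of the 25171 loci, 3135 carry NewGene names and no Ensembl gene, and they held 2.09 to 4.35% of counts. All sample columns were used. The members and gene lists were chosen with earlier results of these data known.

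From the deposited counts, edgeR 4.0.16 in R 4.3.3 (TMM, filterByExpr, quasi-likelihood test) compared 6 hearts at a time, or all 12 for the difference between models, with Benjamini-Hochberg adjustment over all genes. Normalised CPM is the count scaled to a common total, after multiplying the library total by the TMM factor (0.825 to 1.30) over all 12 hearts. DESeq2 1.42.0 and limma 3.58.1 on the authors' FPKM (log2 with a pseudocount of 1 or 0.1) were alternatives, as were RLE factors, other filters on low counts, removal of mt- or NewGene loci, 1 shared fit, and each heart left out. The scripts were tested on simulated data. Named genes were all 9 members, up to 3 genes per list and transgenic comparison with the lowest p among those that passed, the first 2 of each list of other cells, the 3 nearest patterns, and the actin copies. Myh6 hearts with the same replicate number deviated together (correlations of 0.285, 0.184 and 0.173). EIIa-ctl replicate 1 and Myh6-ctl replicate 1, of different lines, had 0.124, and EIIa-ctl replicate 2 and EIIa-tg replicate 3 had 0.137. Replicate 1 is also the heart with Y-linked counts in each group, and no label gives a pairing. Whether the numbers pair these hearts was not settled by this check. Nothing in the labels says whether replicates shared a litter. A count of 3 corresponds to 0.0589 to 0.0782 CPM, and this floor covers counting error only.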

Additional observations from a re-analysis of the deposited data

How the results depend on the processing

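Of the marker calls, the rise of Cnn1 and the fall of Smtn kept their direction under every alternative run in both models, and so did the fall of Mcam in EIIa-tg and of Myh11 in Myh6-tg. The number of called markers did not. In EIIa-tg it went from 3 to 0 with limma on log2(FPKM + 1) without a filter, with all 12 hearts in 1 fit and at the stricter thresholds, and it ranged from 0 to 5 with 1 heart left out, where the calls over all genes ranged from 0 to 4079. In Myh6-tg it went from 3 to 5 with limma on log2(FPKM + 1) or log2(FPKM + 0.1), where Tagln, Pdgfrb and Mcam were gained and Myh11 was lost, to 1 at the stricter thresholds (3 with DESeq2 at the same thresholds), and ranged from 1 to 3 with 1 heart left out (798 to 4269 calls over all genes). The 3 markers called without Myh6-tg replicate 1 were not the same 3, since Myh11 did not pass there. Over the 18 alternatives in Myh6-tg, the call was lost in 7 for Cnn1, in 10 for Myh11 and in 0 for Smtn. A call was gained in 4 for Pdgfrb, in 3 for Tagln and in 2 for Mcam. For the difference between models the number of called markers went from 0 to 1 with DESeq2 and with limma on log2(FPKM + 1), and ranged from 0 to 2 with 1 heart left out. Between the controls it went from 0 to 1 with DESeq2, where the calls over all genes went from 5 to 428, and ranged from 0 to 1. The cause was not tested.

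The replicate block gave 0 called markers in EIIa-tg (Cnn1 3.54 with an adjusted p of 0.0631, Smtn -0.56 with 0.0741, Mcam -0.50 with 0.0649) and 1 call over all genes. EIIa hearts with the same number did not deviate together (correlations of 0.06, -0.07 and -0.05). In the Myh6 comparison, where hearts with the same number did, the block changed no other marker call than that of Myh11.

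On the FPKM scale the median of all genes moved to 0.16 in EIIa-tg and 0.34 in Myh6-tg, and the calls over all genes shifted from 1289 higher and 1238 lower to 2361 and 667 in EIIa-tg and from 1370 and 1435 to 3328 and 900 in Myh6-tg (limma on log2(FPKM + 1)). In the difference between models they shifted from 263 and 361 to 539 and 241. Markers near 0 changed sign. With limma on log2(FPKM + 1), log2(FPKM + 0.1) and log2(FPKM + 1) without a filter, the log2 fold changes in EIIa-tg were 0.078, 0.086 and 0.078 for Myh11, 0.12, 0.12 and 0.12 for Pdgfrb, and 0.067, 0.083 and 0.067 for Cspg4, and those in Myh6-tg were 0.26, 0.26 and 0.26 for Acta2 and 0.082, 0.083 and 0.082 for Rgs5. The difference between models for Rgs5 was 0.16, 0.17 and 0.16, and between controls Myh11 was at -0.0096 with log2(FPKM + 0.1) and -0.015 with the replicate block. With 1 heart left out, Myh11 in EIIa-tg ranged from -0.35 to 0.074 (above 0 without EIIa-tg replicate 3) and Acta2 in Myh6-tg from -0.43 to 0.16 (above 0 without Myh6-ctl replicate 2, and 0.039 without Myh6-tg replicate 3). In the difference between models Rgs5 ranged from -0.20 to 0.12 (0.011 without EIIa-tg replicate 2, and highest without Myh6-ctl replicate 1) and Tagln from -0.021 (without Myh6-tg replicate 2) to 0.29. Between the controls Myh11 ranged from -0.27 (without Myh6-ctl replicate 3) to 0.33. With 3 hearts a group, the number of animals limits what these values can show.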

Other observations

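Markers of other cell types describe what the hearts held beside mural cells. Their counts called by edgeR stand beside 17.0% of all genes in EIIa-tg and 18.3% in Myh6-tg. In EIIa-tg all 6 macrophage markers rose, with a median log2 fold change of 0.87, and the receptor gene Csf1r was at 65.7 ± 13.9 normalised CPM in EIIa-ctl and 96.4 ± 10.4 in EIIa-tg (SD, n = 3). In Myh6-tg 5 of the 6 were higher and 1, Adgre1, was lower, with a median log2 fold change of 0.61. By edgeR 0 of the 6 passed, and 3 had an unadjusted p under 0.05, beside 5210 of 15298 genes. By DESeq2 2 passed. Csf1r was at 96.4 ± 19.2 in Myh6-ctl and 140 ± 59.9 in Myh6-tg (adjusted p of 0.264, edgeR), and Adgre1, a surface receptor of macrophages, at 34.0 ± 10.6 and 22.4 ± 5.13 (adjusted p of 0.152). Among the 6, the difference between models passed for Adgre1 alone (log2 -1.64 ± 0.37, adjusted p of 0.0289), which rose by 1.04 in EIIa-tg. Of the 8 fibroblast markers, 3 rose in EIIa-tg and 2 in Myh6-tg. In Myh6-tg those 2 were Pdgfra and Col1a1, and 2 others, Lum and Dpt, were lower without passing (log2 -0.79 and -0.33). Postn, from the separate list of activated fibroblast markers, was at 86.0 ± 35.8 in Myh6-ctl and 1610 ± 761 in Myh6-tg. Its difference between models passed (log2 3.41 ± 0.66, adjusted p of 0.0154). Wt1, an epicardial marker, was at 4.19 to 13.8 normalised CPM over the 12 hearts.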
